A study of Homo sapiens with 12 samples.

Results

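The RNA levels of 10 genes of fatty acid synthesis, elongation, and desaturation were examined in 2 established human cell lines of uterine leiomyosarcoma: SK-UT-1B, and SK-LMS-1. The genes were taken by symbol from the deposited count table: ACLY, ACSS2, ACACA, FASN, ELOVL1, ELOVL5, ELOVL6, SCD, FADS1, and FADS2, which are 10 of its 60649 genes. SK-UT-1B came from a primary uterine tumor and SK-LMS-1 from a vulvar metastasis, and each stands for 1 tumor. Both were unmodified lines, grown with serum and exposed for 72 h. The study's methods give a short serum starvation before treatment for the RNA used in qPCR, and do not state it again for sequencing. SK-UT-1B cells received the vehicle DMSO (libraries 4-1 and 4-2) or a combination of 3 drugs, gemcitabine, docetaxel, and MK-0752 (libraries 3-1 and 3-3). SK-LMS-1 cells received DMSO (libraries 2-1 and 2-3, here DMSO set 2, and 4-1 and 4-2, here DMSO set 4), MK-0752 alone (libraries 2-2 and 2-3), or the combination (libraries 4-1 and 4-2). MK-0752 is an inhibitor of gamma secretase, the protease that releases the active part of Notch receptors; gemcitabine blocks DNA synthesis and docetaxel stabilizes microtubules. By the study's methods, the concentration of each drug in the combination was lower than that of the drug used alone, so MK-0752 alone and the combination were not given at matched concentrations.

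Fatty acids are built from cytosolic acetyl-CoA, which ACLY makes from citrate and ACSS2 from acetate. ACACA (acetyl-CoA carboxylase alpha) makes malonyl-CoA, and FASN (fatty acid synthase) uses it to make palmitate. ELOVL6 lengthens palmitate to stearate, SCD (stearoyl-CoA desaturase) puts a double bond into both to make monounsaturated fatty acids, ELOVL1 acts on very long saturated chains, and ELOVL5, FADS1 (delta-5 desaturase), and FADS2 (delta-6 desaturase) act on polyunsaturated chains. Many of these genes are targets of the transcription factors SREBP-1 and SREBP-2, and SREBP processing is held back by INSIG1 when sterols are plentiful. Tumor cells often make fatty acids even where serum lipids are at hand.

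The libraries held 25250057 to 40709885 counts on genes, and the 10 genes had 864 to 69438 counts each in a library, so all 10 were among the 21114 genes that passed the filter on low counts. Each level is a CPM value, a gene's reads per 1000000 counted reads of its library, with the normalization factors of edgeR, and differences are given as the log2 fold change (log2FC) ± standard error (SE) of an edgeR quasi-likelihood fit over all 12 libraries. A gene was called where its p, adjusted over the 21114 genes by the Benjamini-Hochberg method, was under 0.05. The sources used here do not say whether libraries of a group came from separate cultures, so the p-values measure the spread between these libraries, which may be technical. Removal of duplicate reads is not stated either, so reads may not be independent molecules. Smooth muscle markers were summed to 84.6 to 124 CPM in SK-UT-1B and to 539 to 623 CPM in SK-LMS-1. Most of the sum was CALD1 and SMTN in both lines. MYH11 and MYOCD had at most 3 counts in any SK-UT-1B library, and at most 5 and 36 counts in SK-LMS-1. DES had no counts in SK-LMS-1 and was at 1.37 to 9.76 CPM in SK-UT-1B. Epithelial markers reached 0.292 to 1.14 CPM in SK-UT-1B and 163 to 264 CPM in SK-LMS-1, almost all of it KRT8 and KRT18. Of the adipocyte markers, ADIPOQ and LEP had at most 3 counts in every library of both lines. The 6 markers were summed to 4.05 to 9.59 CPM in SK-UT-1B and 12.6 to 19.9 CPM in SK-LMS-1. In SK-LMS-1, FABP4 was at 8.86 to 18.3 CPM and PLIN1 at 1.11 to 6.66 CPM. In SK-UT-1B, LPL was at 3.69 to 9.59 CPM. The other adipocyte markers of each line reached at most 0.601 CPM. The part of these differences between the lines in the results below was not tested.

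SCD lies on chromosome 10 (hg38, chr10:100347233-100364826, plus strand) and changed most of the 10 genes after both treatments of SK-LMS-1. The 250 bases before its RefSeq start site (GRCh38.p14, chr10:100346983-100347232, plus strand) are shown beside those of ELOVL6 (chr4:110198616-110198865, minus strand). Among the 10 genes, ELOVL6 had the greatest rise from SK-UT-1B to SK-LMS-1 after DMSO. Capitals mark CCAAT (or ATTGG on the other strand) and the GC box GGGCGG (or CCGCCC on the other strand), and no marked motifs overlap in these sequences.
SCD: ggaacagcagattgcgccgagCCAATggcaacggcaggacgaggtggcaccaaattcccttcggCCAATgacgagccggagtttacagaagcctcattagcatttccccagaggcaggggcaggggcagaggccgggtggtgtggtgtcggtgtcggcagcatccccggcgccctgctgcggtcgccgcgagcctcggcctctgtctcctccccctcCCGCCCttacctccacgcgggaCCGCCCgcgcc
ELOVL6: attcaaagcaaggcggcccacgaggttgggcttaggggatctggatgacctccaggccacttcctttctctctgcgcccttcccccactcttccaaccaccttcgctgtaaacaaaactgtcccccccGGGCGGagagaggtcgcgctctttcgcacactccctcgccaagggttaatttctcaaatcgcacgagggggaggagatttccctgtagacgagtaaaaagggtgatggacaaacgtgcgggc
The SCD window held 2 CCAAT motifs and 2 GC boxes, and the ELOVL6 window held 1 GC box and no CCAAT. RefSeq windows were found for 9 of the 10 genes, 14 windows in all, and none for FASN. The windows of ACLY overlap each other, as do those of FADS2, so the same site can be counted in more than 1 window. CCAAT was in 8 of the 14 windows, from 6 genes, and in 32.035% of 34943 human windows of the same length. The GC box was in 11 of the 14, from 8 genes, against 42.549% of all windows. The E-box CACGTG was in 1 window, that of ELOVL5, against 6.322% of all windows. The sterol regulatory element TCACNCCAC, searched on both strands like the others, was in none of the 14 windows and in 0.881% of all windows; these letters in these 250 bases are all that was searched. A match is a description of the sequence and not a measured binding site.

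**Figure D1:**
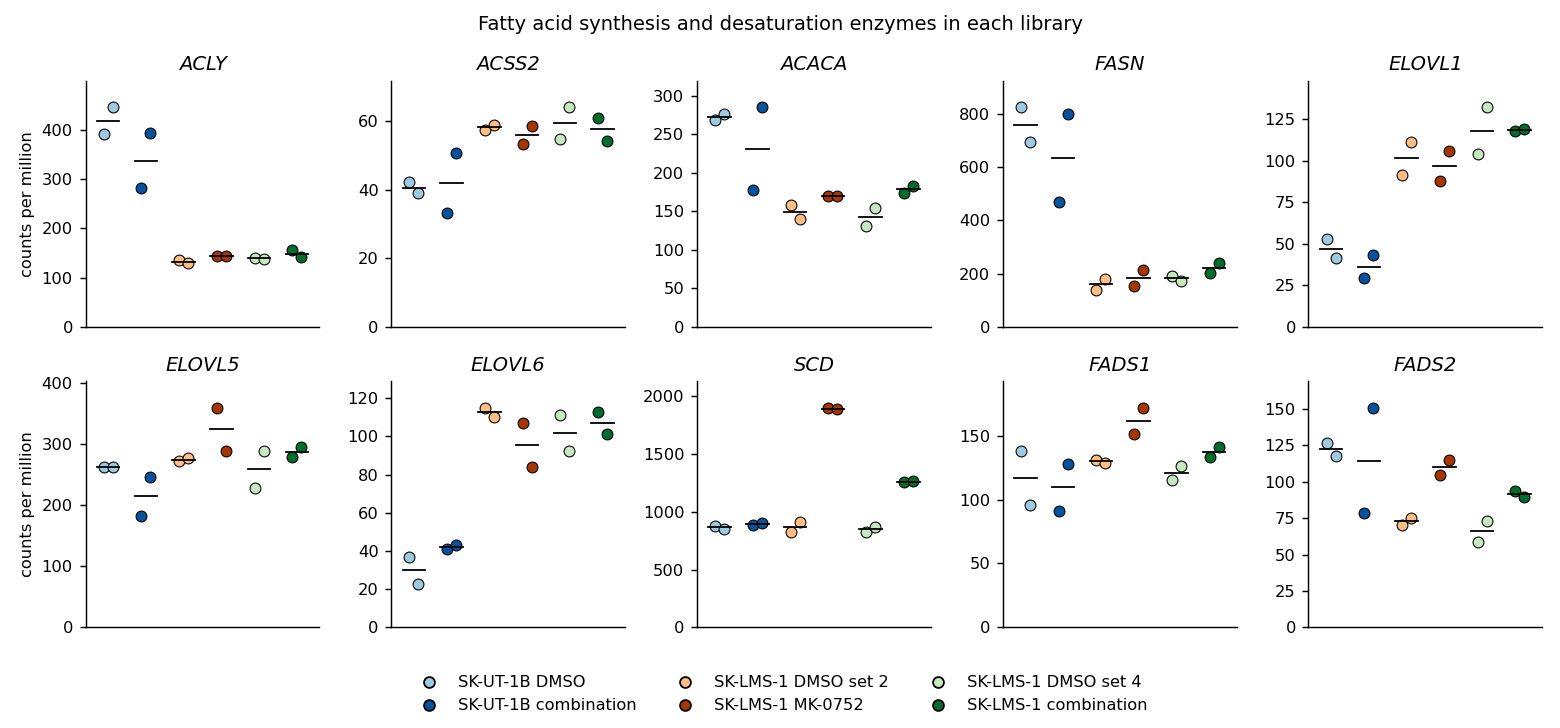
Level of each gene (CPM, linear axis from 0) in the 12 libraries; each point is 1 library and each line the mean of the 2 libraries of a group. SCD stands at 1887 and 1902 CPM in SK-LMS-1 after MK-0752 and at 826 to 909 CPM in that line after DMSO, while FASN and ACLY separate the lines.

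The first comparison asked how SK-LMS-1 responded to MK-0752 alone. SCD rose 2.18-fold, and it was the only one of the 10 genes that was called. SCD stood at 826 and 909 CPM in DMSO set 2 and at 1902 and 1887 CPM after MK-0752. Both treated libraries were above every other library of the data set, and they differed from each other far less than from the controls. The log2FC was 1.13 ± 0.12 (edgeR, Benjamini-Hochberg adjusted p = 6.10e-05, n = 2 against 2), and SCD ranked 5 of the 21114 genes by p. It was called under every alternative and with each library left out, at log2FC between 1.06 and 1.18. In this comparison 0.0853% of all genes were called higher, and 0.0568% were called higher with a log2FC of at least 1; SCD was in both sets. In RNA from whole cultures, a change in every cell and a change in some of the cells cannot be told apart.

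The 2 fatty acid desaturases of polyunsaturated chains also stood higher after MK-0752, without being called. FADS2 (chr11:61792980-61867354, plus strand) was at 70.3 and 75.2 CPM in DMSO set 2 and at 105 and 115 CPM after MK-0752. These libraries did not overlap, and the log2FC was 0.60 ± 0.23 (edgeR, adjusted p = 0.556, p before adjustment 0.0169). FADS1 (chr11:61799627-61829318, minus strand) was at 131 and 129 CPM in the controls and at 151 and 172 CPM after MK-0752, a log2FC of 0.31 ± 0.19 (edgeR, adjusted p = 0.806). The genes overlap on opposite strands and share 490 exon bases, which are 4.79% of the exon bases of FADS1 and 4.64% of those of FADS2, and the strand setting of the counts is not stated. ELOVL5 (chr6:53267398-53349179, minus strand) was at 272 and 278 CPM in the controls and at 360 and 289 CPM after MK-0752, a log2FC of 0.24 ± 0.17 (edgeR, adjusted p = 0.806).

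The other 6 genes were not called after MK-0752. FASN (chr17:82078338-82098294, minus strand) was at 139 and 181 CPM in DMSO set 2 and at 152 and 212 CPM after MK-0752, so the groups overlapped. Its log2FC was 0.19 ± 0.24, that of ACACA (chr17:37084992-37406836, minus strand) was 0.19 ± 0.18, and that of ACLY (chr17:41866917-41930542, minus strand) was 0.13 ± 0.16. ACSS2 (chr20:34872146-34927962, plus strand) had a log2FC of -0.06 ± 0.22, ELOVL1 (chr1:43363398-43368074, minus strand) of -0.07 ± 0.21, and ELOVL6 (chr4:110045846-110199199, minus strand) of -0.24 ± 0.21. The libraries of ACACA and ACLY, which were higher after MK-0752, and of ELOVL6, which were lower, did not overlap those of the controls, while those of ACSS2 and ELOVL1 did. With SEs of 0.16 to 0.24 at 2 libraries a group, the missing calls do not show that they were unchanged. The median log2FC of the 10 genes was 0.19, against 0.00 for all genes tested.

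The other genes of lipid metabolism were described in 5 lists. After MK-0752, INSIG1 rose: it was at 53.0 and 72.1 CPM in DMSO set 2 and at 168 and 185 CPM after MK-0752, a log2FC of 1.50 ± 0.22 (edgeR, adjusted p = 0.00246). It was the only call among the 22 tested genes of the list on control of fatty acid synthesis. SREBF1, which encodes SREBP-1, was at 80.4 and 89.4 CPM in the controls and at 78.9 and 113 CPM after MK-0752, so the groups overlapped. Of the 19 genes of sterol synthesis and uptake, 18 had a log2FC above 0 and the median was 0.56. None of the 19 was called by edgeR, 8 had a p under 0.05 before adjustment, and DESeq2 called 3 higher. edgeR called none of the 29 partners of fatty acid synthesis (3 before adjustment, 1 by DESeq2), none of the 20 oxidation genes (6 before adjustment, 1 by DESeq2), and none of the 17 glycerolipid genes (2 before adjustment, 1 by DESeq2). Their medians were 0.02, 0.23, and 0.04. MGLL (monoglyceride lipase), named here after its values were seen, was at 223 CPM in both controls and at 83.2 and 94.2 CPM after MK-0752, a log2FC of -1.33 ± 0.39 (edgeR, adjusted p = 0.409, p before adjustment 0.00774). Of all genes, 6.41% had a p under 0.05 before adjustment and DESeq2 called 220.

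The next comparison asked how SK-LMS-1 responded to the combination. edgeR called none of the 10 genes, while DESeq2 called SCD as 1 of 39 genes; the background in edgeR was 0.0237% of genes called in either direction. Before adjustment, SCD alone of the 10 had a p under 0.05, as did 4.33% of all genes. SCD stood at 828 and 866 CPM in DMSO set 4 and at 1260 and 1264 CPM after the combination. The treated libraries nearly coincided and did not overlap the 4 DMSO libraries of the line. The log2FC was 0.58 ± 0.12, which is 1.49-fold (edgeR, adjusted p = 0.229, p before adjustment 0.000129, rank 10 of 21114). With DESeq2 the log2FC was 0.54 and the adjusted p 1.11e-05, and over all alternatives the log2FC lay between 0.53 and 0.63.

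FADS2 was at 58.6 and 73.2 CPM in DMSO set 4 and at 93.4 and 89.4 CPM after the combination, a log2FC of 0.47 ± 0.23 (edgeR, adjusted p = 0.907). ACACA was at 131 and 155 CPM and then at 174 and 183 CPM, a log2FC of 0.32 ± 0.19 (edgeR, adjusted p = 0.907). FASN was at 192 and 172 CPM and then at 202 and 241 CPM, a log2FC of 0.28 ± 0.24 (edgeR, adjusted p = 0.945). Treated and control libraries did not overlap for these 3 genes nor for FADS1 and ACLY, and they overlapped for ELOVL5, ELOVL6, ELOVL1, and ACSS2; none of the 9 passed the threshold. FADS1 had a log2FC of 0.19 ± 0.19, ELOVL5 of 0.15 ± 0.17, ACLY of 0.09 ± 0.16, ELOVL6 of 0.07 ± 0.21, ELOVL1 of 0.01 ± 0.21, and ACSS2 of -0.04 ± 0.22. The median of the 10 genes was 0.17, against 0.03 for all genes. INSIG1 was at 59.0 and 87.0 CPM in DMSO set 4 and at 101 and 97.7 CPM after the combination. The 19 sterol genes had a median log2FC of 0.39, with 16 above 0; edgeR and DESeq2 called none of them, and 8 had a p under 0.05 before adjustment. The other lists had no calls by edgeR or DESeq2, and 1 gene of the control list, 2 of the glycerolipid list, and none of the partners or oxidation genes had a p under 0.05 before adjustment.

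In SK-LMS-1, MK-0752 and the combination were each set against the DMSO libraries that share their leading number. This was a choice made here, since the labels do not tie a DMSO set to a treatment. The effects were compared as a difference of log2FC. For SCD the effect of MK-0752 exceeded that of the combination by 0.55 ± 0.17 (edgeR, adjusted p = 0.776, p before adjustment 0.00426). edgeR called none of the 10 genes, against a background of 0.0379%, and DESeq2 called SCD as 1 of 51 genes (0.59, adjusted p = 0.00323). Of the 10, 1 had a p under 0.05 before adjustment, as did 5.18% of all genes. Over the alternatives the adjusted p of SCD lay between 0.00323 and 1.00, and it was under 0.05 also in the model with only the libraries of the comparison (0.61, edgeR, adjusted p = 0.0418). Between the 2 DMSO sets, edgeR called 0 of the 10 genes and 0% of all genes, none of the 10 had a p under 0.05 before adjustment against 1197 of all genes, and DESeq2 called none of the 10 and 32 of all genes. This does not show that the sets were alike: ELOVL1 was at 0.22 ± 0.21 and FASN at 0.19 ± 0.24, set 4 minus set 2, and the libraries of ACLY and of FADS1 did not overlap between the sets. The concentrations of MK-0752 differed, as given above.

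**Figure D2:**
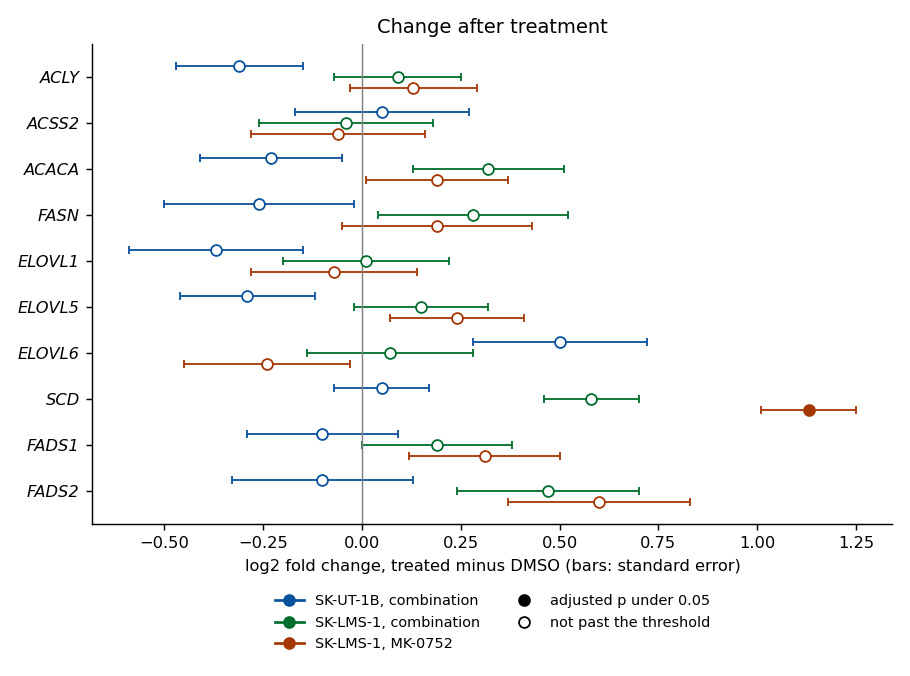
log2 fold change of each gene after treatment relative to the DMSO libraries of its comparison, with bars of 1 SE from the edgeR fit; filled points had an adjusted p under 0.05. SCD after MK-0752 (1.13) is the only filled point; FADS2 after MK-0752 (0.60) and SCD after the combination in SK-LMS-1 (0.58) come next.

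In SK-UT-1B, the combination was compared with DMSO. The combination libraries carry the leading number 3 and the DMSO libraries 4, so whatever that number marks and the treatment cannot be told apart here or where these combination libraries are compared with SK-LMS-1. edgeR called none of the 10 genes, against a background of 0.715% of genes in either direction; 1 of the 10, ELOVL6, had a p under 0.05 before adjustment, near the 10.5% of all genes that did, and DESeq2 called none. SCD was at 877 and 854 CPM after DMSO and at 890 and 899 CPM after the combination, a log2FC of 0.05 ± 0.12 (edgeR, adjusted p = 1.00). All 4 libraries lay within the range of the SK-LMS-1 DMSO libraries. ELOVL6 was at 36.8 and 22.9 CPM after DMSO and at 41.2 and 43.3 CPM after the combination, a log2FC of 0.50 ± 0.22 (edgeR, adjusted p = 0.392). It was 0.86 without DMSO library 4-1 and 0.20 without DMSO library 4-2, and was not called either time.

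The 2 combination libraries of SK-UT-1B stood apart from each other in this pathway. FASN was at 823 and 693 CPM after DMSO and at 467 CPM in library 3-1 and 797 CPM in library 3-3. ACLY was at 392 and 446 CPM and then at 282 and 393 CPM, and FADS2 was at 127 and 118 CPM and then at 78.3 and 151 CPM. Library 3-1 was the lowest of the 4 SK-UT-1B libraries in 8 of the 10 genes, all but SCD and ELOVL6, and in 22.2% of all genes. The median difference between these libraries was 0.53 on the log2 scale over the 10 genes and 0.31 over 8644 genes averaging 500 counts or more; in the other groups the medians over the 10 genes were 0.08 to 0.23. Without library 3-3, edgeR called FASN (log2FC -0.70, adjusted p = 0.00322), ACACA (-0.61, adjusted p = 0.0319), ELOVL1 (-0.69, adjusted p = 0.0481), and ACLY (-0.57, adjusted p = 0.0445) lower, with the lone library taken to vary like the other groups. Without library 3-1 none was called, and FASN was at a log2FC of 0.05. With both libraries, the log2FC was -0.37 ± 0.22 for ELOVL1, -0.31 ± 0.16 for ACLY, -0.29 ± 0.17 for ELOVL5, -0.26 ± 0.24 for FASN, and -0.23 ± 0.18 for ACACA. It was -0.10 ± 0.23 for FADS2, -0.10 ± 0.19 for FADS1, and 0.05 ± 0.22 for ACSS2. The median of the 10 genes was -0.17, against 0.00 for all genes. This median depends on library 3-1. Without it the log2FC of FASN, ACACA, FADS1, and FADS2 turned above 0, while ACLY, ELOVL1, and ELOVL5 stayed below 0. In the lists, MGLL was the only call by edgeR and by DESeq2. It fell from 163 and 84 counts after DMSO to 19 and 2 counts after the combination (log2FC -3.59 ± 0.60, edgeR, adjusted p = 0.0391). Without DMSO library 4-1 the log2FC was -2.82, and without combination library 3-1 it was -5.71. The call was lost under the replicate block (edgeR, adjusted p = 0.0814) and with only the libraries of the comparison (edgeR, adjusted p = 0.618). Before adjustment, a p under 0.05 was found for 3 partners, 3 control genes, 3 oxidation genes, 2 glycerolipid genes, and 2 sterol genes, against 10.5% of all genes. The medians of the lists lay between -0.15 for the oxidation genes and 0.23 for the control genes.

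The effect of the combination was compared between the lines. edgeR called none of the 10 genes, against a background of 0.232%, and DESeq2 called SCD as 1 of 160 genes. Before adjustment, SCD and ACACA had a p under 0.05, as did 7.67% of all genes. For SCD the effect in SK-LMS-1 exceeded that in SK-UT-1B by 0.53 ± 0.17 (edgeR, adjusted p = 0.436, p before adjustment 0.00580; DESeq2 0.50, adjusted p = 0.0158). For 8 of the 10 genes the difference was above 0, with a median of 0.42 over the 10, against 0.05 for all genes. The SK-UT-1B side of this median moved with library 3-1. Without that library the log2FC in SK-UT-1B was 0.05 for FASN, 0.04 for ACACA, and 0.27 for FADS2, while SCD (0.03) and ELOVL6 (0.51) hardly moved. Without library 3-3 of SK-UT-1B, edgeR called 3 genes higher (FASN, ACACA, and FADS2), and without library 3-1 none.

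**Figure D3:**
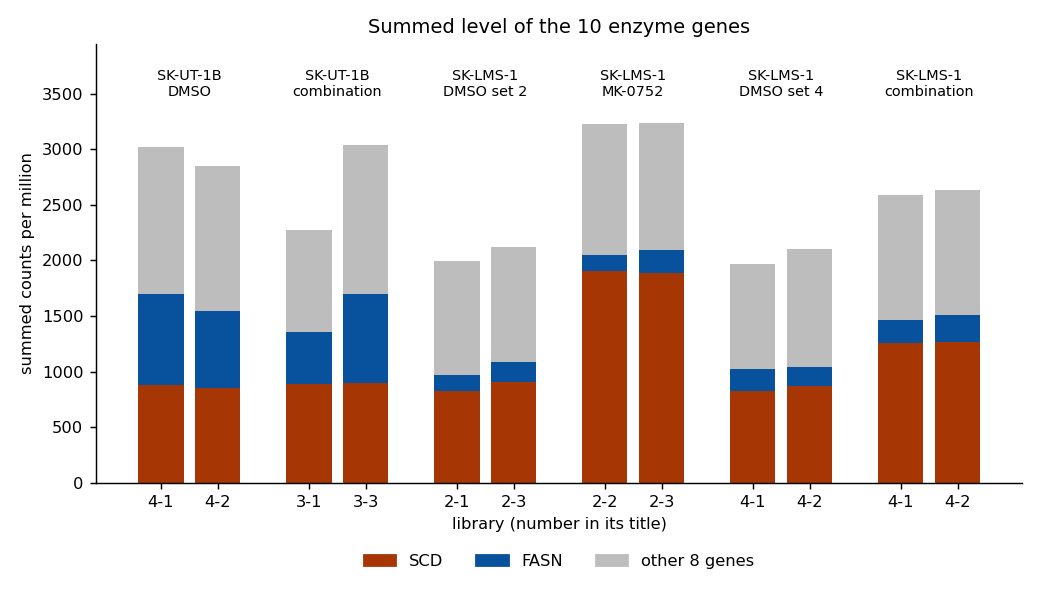
Summed level of the 10 genes in each library (CPM, bars from 0), divided into SCD, FASN, and the other 8 genes; labels on the axis are the numbers of the libraries. The sum is 3233 and 3238 CPM after MK-0752 and 1964 to 2122 CPM after DMSO in that line, and the difference lies mostly in SCD.

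The summed level shows how large a share of the reads on these 10 genes fell on SCD; it is not divided by gene length, so it is a share of reads and not of RNA molecules, and it is compared only between libraries. In the 4 SK-LMS-1 DMSO libraries the 10 genes were summed to 1964 to 2122 CPM, of which SCD took 41.1% to 42.8%. After MK-0752 the sum was 3233 and 3238 CPM, with 58.8% and 58.3% from SCD, and after the combination it was 2589 and 2631 CPM, with 48.7% and 48.0% from SCD. Without SCD, the other 9 genes were summed to 1137 to 1241 CPM in the DMSO libraries, 1331 and 1351 CPM after MK-0752, and 1329 and 1367 CPM after the combination. In SK-UT-1B the sum was 3019 and 2848 CPM after DMSO, with 29.1% and 30.0% from SCD. After the combination it was 2273 CPM in library 3-1, with 39.2% from SCD, and 3036 CPM in library 3-3, with 29.6% from SCD.

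The lines were next compared after DMSO, with the 4 SK-LMS-1 libraries together; the same DMSO libraries serve as the controls above. Of the 10 genes, 4 were called lower in SK-LMS-1 (FASN, ACLY, ACACA, and FADS2) and 3 higher (ELOVL6, ELOVL1, and ACSS2). The background was high, with 19.5% of all genes called lower and 21.5% called higher. With a log2FC of at least 1 in size, 2 were lower and 2 higher, against 14.1% and 17.0% of all genes.

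FASN was at 823 and 693 CPM in SK-UT-1B and at 139, 181, 192, and 172 CPM in SK-LMS-1. The lines were far apart, with a log2FC of -2.15 ± 0.20, which is 4.44-fold lower in SK-LMS-1 (edgeR, adjusted p = 8.24e-07). ACLY was at 392 and 446 CPM and at 135 to 141 CPM except for 129 CPM in library 2-3, a log2FC of -1.62 ± 0.14, which is 3.08-fold lower (edgeR, adjusted p = 6.23e-09). ACACA was at 268 and 277 CPM in SK-UT-1B and at 131 to 158 CPM in SK-LMS-1, which is 1.86-fold lower (log2FC -0.90 ± 0.16, edgeR, adjusted p = 8.75e-05). FADS2 was at 127 and 118 CPM and at 58.6 to 75.2 CPM, which is 1.77-fold lower (log2FC -0.82 ± 0.19, edgeR, adjusted p = 0.00169). None of these 4 genes overlapped between the lines.

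ELOVL6 was at 36.8 and 22.9 CPM in SK-UT-1B and at 115, 110, 111, and 92.4 CPM in SK-LMS-1. It was 3.59-fold higher in SK-LMS-1, the greatest rise of the 10 genes (log2FC 1.84 ± 0.20, edgeR, adjusted p = 3.39e-07). ELOVL1 was at 52.6 and 41.4 CPM and at 91.6 to 132 CPM, which is 2.33-fold higher (log2FC 1.22 ± 0.20, edgeR, adjusted p = 3.82e-05). ACSS2 was at 42.2 and 38.9 CPM and at 54.8 to 64.0 CPM, which is 1.45-fold higher (log2FC 0.54 ± 0.20, edgeR, adjusted p = 0.0363). With the second number of the libraries as a replicate block, this call was lost (log2FC 0.47, edgeR, adjusted p = 0.0713). The call of ACSS2 was lost with 5 of the 6 DMSO libraries left out in turn, all but SK-LMS-1 library 4-1, at adjusted p between 0.107 and 0.212. SCD was at 877 and 854 CPM in SK-UT-1B and at 826 to 909 CPM in SK-LMS-1, and the lines overlapped (log2FC -0.01 ± 0.10, edgeR, adjusted p = 0.991). ELOVL5 (0.02 ± 0.15) and FADS1 (0.10 ± 0.17) also overlapped and were not called.

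**Figure D4:**
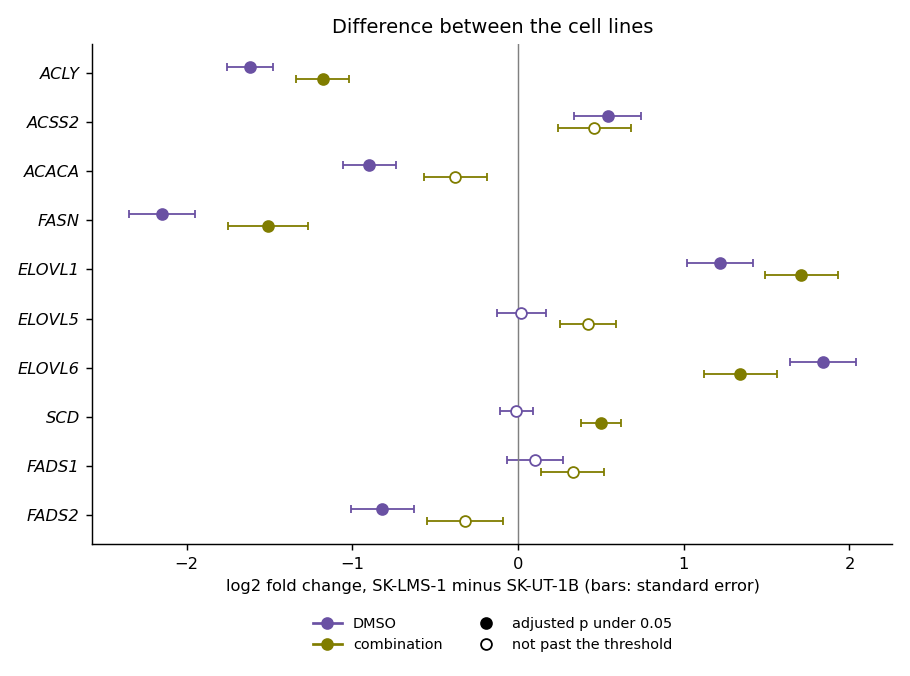
log2 fold change of each gene between the lines, SK-LMS-1 minus SK-UT-1B, after DMSO and after the combination, with bars of 1 SE from the edgeR fit; filled points had an adjusted p under 0.05. FASN and ACLY lie below 0 and ELOVL1 and ELOVL6 above 0 in both conditions, and SCD leaves 0 only after the combination.

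After the combination the same comparison gave 2 genes lower in SK-LMS-1 (FASN and ACLY) and 3 higher (ELOVL1, ELOVL6, and SCD). Of all genes, 13.6% were called lower and 19.3% higher, and with a log2FC of at least 1 in size, which held for 2 and 2 of the 10 genes, 9.88% and 15.6%. FASN was 2.86-fold lower (log2FC -1.51 ± 0.24, edgeR, adjusted p = 0.000222) and ACLY 2.26-fold lower (-1.18 ± 0.16, edgeR, adjusted p = 9.92e-06). ELOVL1 was 3.28-fold higher (1.71 ± 0.22, edgeR, adjusted p = 3.37e-06) and ELOVL6 2.54-fold higher (1.34 ± 0.22, edgeR, adjusted p = 5.76e-05). SCD was 1.41-fold higher (0.50 ± 0.12, edgeR, adjusted p = 0.00281), at 1260 and 1264 CPM against 890 and 899 CPM. This call of SCD was lost without SK-LMS-1 combination library 4-1 (adjusted p = 0.0750) or 4-2 (adjusted p = 0.0749), each time with 1 library left in that group. Without SK-UT-1B library 3-3, 6 genes were called higher, with ELOVL5, FADS1, and ACSS2 added, and without library 3-1, 4 were called lower, with ACACA and FADS2 added. With all libraries, ACACA was at -0.38 ± 0.19, FADS2 at -0.32 ± 0.23, FADS1 at 0.33 ± 0.19, ELOVL5 at 0.42 ± 0.17, and ACSS2 at 0.46 ± 0.22, and none of these was called.

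The lists of neighboring pathways held calls in both directions between the lines after DMSO, where 21.5% of all genes were called higher in SK-LMS-1 and 19.5% lower. Of 29 tested partners of fatty acid synthesis, 9 were called higher in SK-LMS-1 and 8 lower, with a median log2FC of 0.12 against 0.00 for all genes. ACSL5, a fatty acyl-CoA synthetase, had no counts in SK-UT-1B and 1908 to 3711 counts in SK-LMS-1. Against a floor of 3 counts per library, its level in SK-LMS-1 was at least 886-fold higher. ELOVL7, an elongase of long chains, was at 36.7 and 41.8 CPM in SK-UT-1B and had no counts in 3 SK-LMS-1 DMSO libraries and 23 counts in the other (edgeR, adjusted p = 0.00567). With the second number of the libraries as a replicate block, the call of ELOVL7 was lost (edgeR, adjusted p = 0.186). Of 22 control genes, 7 were higher and 5 lower. The ends named here are those among calls averaging 100 counts or more in the group with the higher level. PRKAA2, a catalytic subunit of AMPK, was highest at 4.62 ± 0.36 (edgeR, adjusted p = 2.10e-09). PNPLA3 was lowest at -2.34 ± 0.56 (edgeR, adjusted p = 0.00217), while the lowest log2FC of the whole list was -7.34. The list was put together here, and a place in it does not show that a gene controls fatty acid synthesis. The call of PNPLA3 was lost without SK-UT-1B DMSO library 4-1 (-1.68, edgeR, adjusted p = 0.145).

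Of 20 oxidation genes, 3 were called higher in SK-LMS-1 and 5 lower, against the same 21.5% and 19.5% of all genes, with a median of -0.24. CPT1C was at 2.08 ± 0.37 (edgeR, adjusted p = 0.000120), and HADH, a dehydrogenase of beta-oxidation, at -2.09 ± 0.21 (edgeR, adjusted p = 6.78e-08). Of 17 glycerolipid genes, 8 were higher and 5 lower, with a median of 0.41. GPAT3, a glycerol-3-phosphate acyltransferase, had no counts in SK-UT-1B and 236 to 286 counts in SK-LMS-1, at least 89.9-fold higher against the same floor, and LPIN3 was at -3.78 ± 0.50 (edgeR, adjusted p = 3.34e-06). Of 19 sterol genes, 6 were higher and 6 lower, with a median of 0.27. The lower counts of the control, glycerolipid, and sterol lists fell when a single SK-UT-1B DMSO library was left out. After the combination, where 19.3% of all genes were called higher and 13.6% lower, 12 partners were higher and 7 lower, 6 control genes higher and 5 lower, and 5 oxidation genes higher and 4 lower. Of the glycerolipid genes 6 were higher and 5 lower, and of the sterol genes 7 were higher and 1 lower, with a median of 0.64; the change in these counts between the conditions was not tested.

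The genes were ranked by level per kilobase of the union of their GENCODE v44 exons. This union counts every annotated exon, and was 10553 bases for FADS2, 10228 for FADS1, and 2506 for ELOVL1. Which transcripts were present was not measured, so the order between genes also depends on this choice of length. SCD was the highest of the 10 in every group, at 165 CPM per kb in SK-UT-1B and 163 CPM per kb in SK-LMS-1 after DMSO. In SK-UT-1B it was followed by FASN at 81.3 and ACLY at 80.4 CPM per kb, which overlapped, and by ELOVL5 at 68.8 CPM per kb. In SK-LMS-1 it was followed by ELOVL5 at 70.0, ELOVL1 at 43.8, ACLY at 26.1, and FASN at 18.3 CPM per kb, of which FASN overlapped with ELOVL6 at 14.7 CPM per kb. The lowest was ELOVL6 in SK-UT-1B, at 4.10 CPM per kb, and FADS2 in SK-LMS-1, at 6.57 CPM per kb, and neither overlapped with the gene before it. FADS1, ACACA, and ACSS2, at 12.2, 11.2, and 11.2 CPM per kb in SK-LMS-1, could not be ordered beyond the spread of the 4 libraries. After MK-0752, SCD was at 361 and ELOVL5 at 85.1 CPM per kb, and FADS2, at 10.5 CPM per kb, overlapped with ACSS2 at 10.6 CPM per kb.

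**Figure D5:**
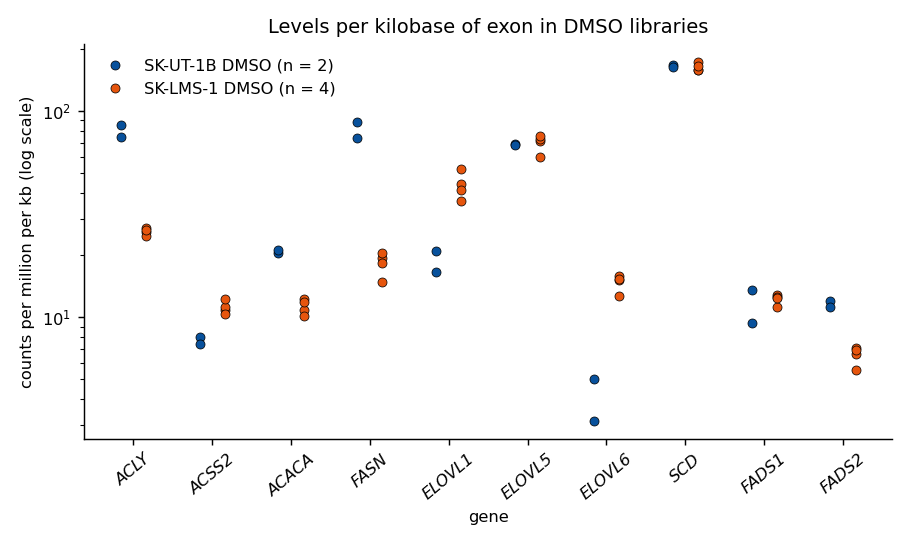
Level of each gene per kilobase of exon (CPM per kb, log axis) in the 2 SK-UT-1B and 4 SK-LMS-1 DMSO libraries; each point is 1 library. SCD is highest in both lines, near 165 and 163 CPM per kb on average, while FASN, ACLY, and ELOVL6 change places between them.

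The genes whose pattern over the 12 libraries was nearest to FASN and to SCD were found by the root mean square (RMS) difference of log2 CPM, each gene centered on its mean, among 12202 genes averaging 100 counts or more. IDH2 (RMS difference 0.18), RRP7A (0.18), and FOXK2 (0.19) were nearest to FASN, whose own pattern had an RMS of 0.93. FBN1 (0.22), ACSL3 (0.23), and CPT1A (0.23) were nearest to SCD, whose own pattern had an RMS of 0.43. ACSL3, an acyl-CoA synthetase, and CPT1A, which brings fatty acids into mitochondria, belong to the partner and oxidation lists. These are descriptions of 12 libraries that share treatments and lines, and the libraries of the same group are not independent conditions.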

How the data were processed

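RNA sequencing of 12 libraries was used, in 6 groups of 2; the titles gave the line and treatment, and their leading number divided the DMSO libraries of SK-LMS-1. What that number marks is not given in the sources used here. The authors depleted ribosomal RNA, made stranded libraries, trimmed single-end reads with Trim Galore 0.3.7, aligned them to hg38 with STAR 2.7.9a, used SortMeRNA against ribosomal reads, and deposited the raw count of reads on each gene, not normalized. The annotation and the strand setting of the counts are not given in the sources used here. The identifiers of all 10 genes are in GENCODE v44, which gave coordinates and exon lengths. All genes were fitted with edgeR 4.0.16 in R 4.3.3 (TMM, filterByExpr, robust quasi-likelihood), which was tested on simulated data: for MK-0752 against DMSO set 2, it called 0% of 1.5-fold, 20.9% of 2-fold, and 48.5% of 4-fold changes among 19528 genes, so a gene that was not called may still have changed. The 10 genes and the lists were chosen with earlier results of these data known. Of each list, the genes with the highest and lowest log2FC among calls averaging 100 counts or more in the group with the higher level were named, with SREBF1 and INSIG1, and MGLL and the neighbors of FASN and SCD; some genes that this rule names are not reported here. The lists held 31, 22, 21, 17, and 19 genes. Promoter windows came from RefSeq on GRCh38.p14. Alternatives were DESeq2 1.42.0, its size factors in edgeR, a filter at 1 count or at an average of 50 counts, a fit to the compared libraries only, the use of all 4 DMSO libraries of SK-LMS-1, a replicate block, and each library left out. Leaving out a library of a group of 2 leaves 1 library, which is taken to vary like the other groups. Each library was counted as a replicate. Libraries of a group differed by more than counting noise alone. Repeat libraries of the same culture could also do so, so this does not show that they came from separate cultures.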

Additional observations from a re-analysis of the deposited data

How the results depend on the processing

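The rise of SCD after MK-0752 and the calls of FASN, ACLY, ELOVL1, and ELOVL6 between the lines kept their direction and their side of the threshold under every alternative run. After DMSO, the calls of ACACA (log2FC -1.01 to -0.87) and FADS2 (-0.95 to -0.79) between the lines did so too. DESeq2 called 1 more gene, SCD, after the combination in SK-LMS-1, in the comparison of the combination between the lines, and in that of MK-0752 with the combination, where the model with only the libraries of the comparison also called 1. With each library left out in turn, 0 to 4 genes were called lower after the combination in SK-UT-1B, 2 to 6 were called higher and 2 to 4 lower in SK-LMS-1 when both lines had received the combination, and 0 to 3 higher in the comparison of the combination effects. The low of 2 higher came without SK-LMS-1 combination library 4-1 or 4-2, and the highs came without SK-UT-1B library 3-3 or 3-1. The numbers of the libraries were not taken to pair them: over 21114 genes, the deviations of same-numbered libraries had a correlation of -0.012 between SK-LMS-1 DMSO set 4 and the combination, and of -0.039 to 0.019 over 6 pairs of groups that share a number. The replicate block ended the call of ACSS2 between the lines after DMSO (0.47, edgeR, adjusted p = 0.0713). Some reported differences turned sign. For ACSS2 in SK-UT-1B the replicate block gave -0.10. For ELOVL1 after the combination in SK-LMS-1, a mean of at least 50 counts gave -0.03, and DESeq2, its size factors, no filter beyond 1 count, and only the libraries of the comparison gave -0.02. For ELOVL6 there, all 4 DMSO libraries gave 0.00, just under 0. For ELOVL5 between the lines after DMSO, DESeq2 and its size factors gave 0.00, and both other filters gave -0.01. The cause of these turns was not tested.

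With libraries left out in turn, the log2FC in SK-UT-1B ranged from -0.70 to 0.05 for FASN, -0.61 to 0.04 for ACACA, -0.29 to 0.29 for ACSS2, -0.36 to 0.17 for FADS1, and -0.64 to 0.27 for FADS2. After MK-0752 it ranged from -0.07 to 0.41 for FASN, -0.13 to 0.01 for ACSS2, -0.21 to 0.06 for ELOVL1, and -0.10 to 0.41 for SREBF1. After the combination in SK-LMS-1 it ranged from -0.15 to 0.10 for ACSS2, -0.14 to 0.21 for ELOVL1, 0.00 to 0.35 for ELOVL5, and -0.03 to 0.22 for ELOVL6. Between the lines it ranged from -0.11 to 0.07 for ELOVL5 and -0.14 to 0.34 for FADS1 after DMSO, and from -0.70 to 0.00 for ACACA and -0.75 to 0.22 for FADS2 after the combination.

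Counts in the lists were small and moved more. After MK-0752, DESeq2 called 1 partner, 1 oxidation gene, 1 glycerolipid gene, and 3 sterol genes higher. All 4 DMSO libraries as the control gave 1, 1, 1, and 4, and only the libraries of the comparison gave 1, 1, 1, and 3, with 2 control genes. No filter beyond 1 count gave 2 oxidation, 1 glycerolipid, and 3 sterol genes, and DESeq2 size factors and the replicate block gave 1 glycerolipid gene each. Both no filter and only the libraries of the comparison gave 1 glycerolipid gene lower, MGLL, as did every library left out (1 to 1); glycerolipid genes higher ranged from 0 to 1 and sterol genes higher from 0 to 2. After the combination in SK-LMS-1, no filter gave 1 partner lower and 1 sterol gene higher, and with libraries left out partners ranged from 0 to 1 in either direction and sterol genes higher from 0 to 2. In SK-UT-1B, the call of MGLL was lost with only the libraries of the comparison and with the replicate block (0 glycerolipid genes), and the block called 1 partner lower. With libraries left out, partners lower ranged from 0 to 4, control genes higher from 0 to 2, oxidation genes lower from 0 to 1, and sterol genes lower from 0 to 3. Between the lines after DMSO, control, glycerolipid, and sterol genes lower each ranged from 3 to 6 with libraries left out, and no filter beyond 1 count gave 7 control genes lower. Between the lines after the combination, the counts of every list also moved with the alternatives, in at least 1 direction. There the replicate block gave 8 glycerolipid genes higher, and only the libraries of the comparison gave 2 sterol genes lower. With 2 libraries a group, a gene that was not called may still differ.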
